A study of Danio rerio with 15 samples.

Results

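Transcripts of the proteasome were measured in pronephric ducts, the tubes that drain the larval zebrafish kidney, at 72 h post fertilization (hpf). The members are the genes whose RefSeq symbol begins with psma, psmb, psmc, psmd, psme, psmf or psmg, with the accession of the highest summed count taken for each symbol. Of 59 such symbols in the RefSeq table, 53 matched an accession, out of 18532 symbols matched in all. The symbols psmb4, psmd1, psmd9, psme4a, psmg4 and psme3ip1 had no match and were not analysed here. One of the 53, psmc3ip, shares the prefix but is named for an interaction partner and is no subunit.

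There were 8 libraries of actl6a knockout embryos (mutants), homozygous for a CRISPR/Cas9 mutation and obtained by incross, and 7 libraries of their siblings, whose genotype is labelled WT. The labels leave unsaid if the siblings include heterozygotes. The protein of actl6a is part of the SWI/SNF remodellers of chromatin, and the series addresses its role in cilia and pronephros development. Both groups came from the transgenic Na, K-ATPase alpha1A4:GFP background, in which GFP marks pronephric epithelium. Per the labels' protocols, 15 embryos per group were digested with collagenase and about 10 fluorescent duct fragments were picked by eye. The labels do not say whether libraries came from separate clutches, so p-values measure the spread between these libraries, which may be technical.

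The proteasome is the chamber in which cells degrade proteins tagged with ubiquitin. Its 20S core is a barrel of alpha and beta subunits, of which a few beta subunits carry the cutting sites, and the 19S cap unfolds substrates with a ring of ATPases. In mammals, interferon replaces the cutting subunits by the immunoproteasome forms PSMB8, PSMB9 and PSMB10 and raises the PA28 activator PSME1 and PSME2, which changes the peptides available to MHC class I molecules. Zebrafish carry further inducible-type subunits, of which psmb12, psmb13a and psma6l were counted here.

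Total counts ran from 1583052 to 4013852 per library, and levels are given as CPM, counts scaled to the library total after a trimmed mean of M values (TMM) correction. A count of 0 allowed a level of up to 0.742 to 2.21 CPM, depending on the library. Intervals and floors cover counting error only. Levels of actl6a were 9.87 to 38.9 CPM in mutants and 63.8 to 93.8 CPM in siblings. Summed pronephric epithelium markers were at 3239 to 9901 CPM in mutants and 6144 to 9192 CPM in siblings. All 21 matched pronephric markers had counts, although gata3 had none in siblings. Mutant and sibling libraries lay under separate sequencing indexes, so the effects of genotype and index cannot be told apart.

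The 3 inducible subunits that were tested and the PA28 genes psme1 and psme2 were called higher in mutants. No constitutive subunit was called in either direction in the main edgeR fit. The called genes were psmb9a, psmb12, psma6l, psme2 and psme1, with log2 fold changes of 4.29, 5.91, 2.90, 1.63 and 0.77. They were 5 of 46 tested members (10.9%), against 13.6% called higher over all 12914 accessions tested, and 2 of the 5, psmb9a and psmb12, were tested only because they are high in mutants, so nothing about the family is read from this count. None was called lower by edgeR's quasi-likelihood test, against 5.54% over all accessions. At an unadjusted p under 0.05, 2 members were lower, and 0 were called lower by DESeq2 and 8 by limma with voom quality weights. The voom setting called 5575 of 12914 accessions over the whole table, 3086 of them higher. Its 8 lower calls are therefore not read as a result about the family. The other 7 members did not pass the filter on low counts: psmb8a, psmb13a, psmb10, psmb11a, psmb11b, psmb7 and psmc3. In bulk samples such as these, fewer cells of a type and less RNA per cell cannot be told apart.

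**Figure D1:**
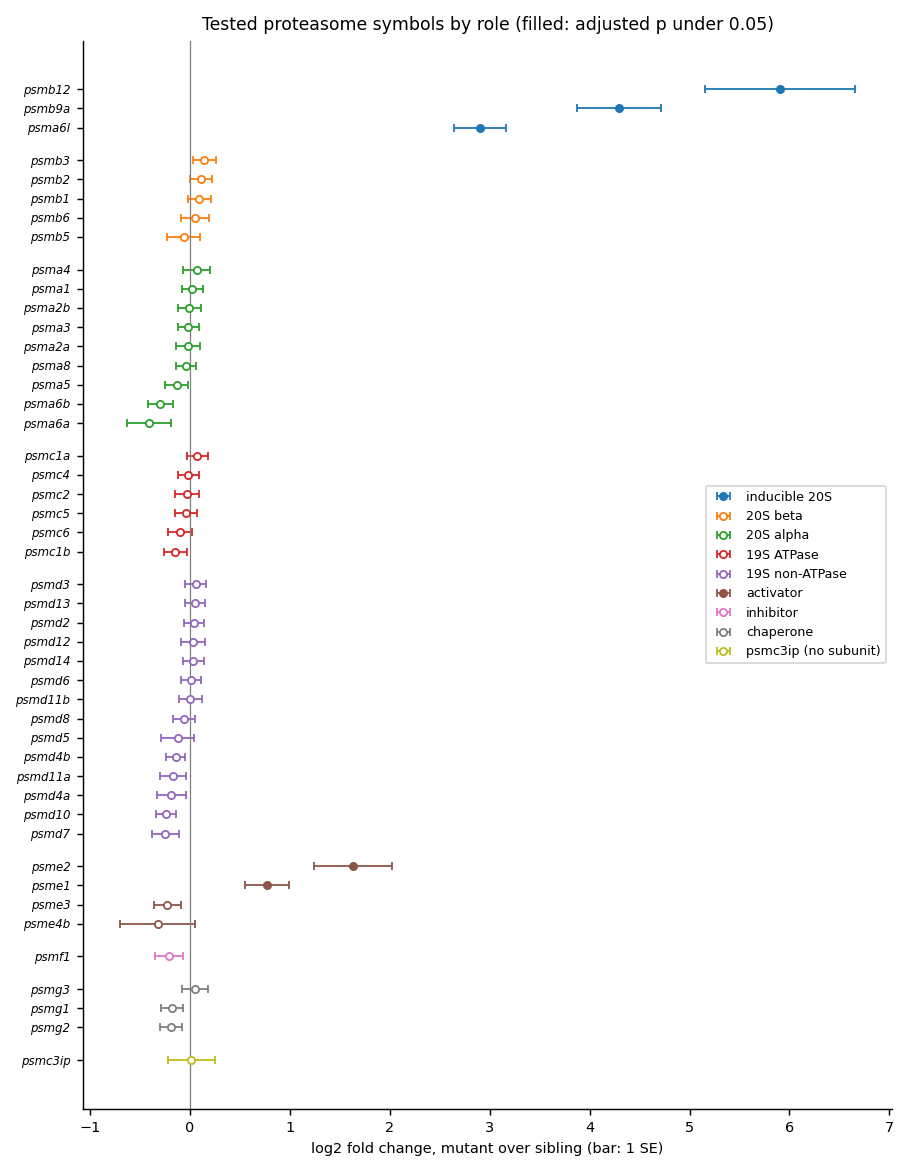
Log2 fold change, mutant over sibling, of the 46 tested proteasome symbols, grouped by role, with bars of 1 SE. Filled points passed an adjusted p of 0.05. The 3 inducible subunits lie between 2.90 and 5.91 and the PA28 subunits psme2 and psme1 at 1.63 and 0.77, while the 34 constitutive 20S and 19S symbols lie between -0.41 and 0.15.

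Among the inducible beta subunits, psmb9a (NM_131391.2) encodes the zebrafish counterpart of PSMB9, the form that takes the place of the caspase-like cutting subunit psmb6. Mutant replicates 1 to 8 held 24.4, 7.68, 28.6, 56.9, 40.8, 49.8, 26.7 and 51.1 CPM, and sibling replicates 1 to 7 held 1.80, 1.55, 1.08, 1.67, 2.66, 0.489 and 4.01 CPM. Every mutant lay above every sibling, and the lowest mutant, replicate 2, was the nearest to the siblings. The mean was 35.7 ± 16.7 CPM in mutants (SD, n = 8) and 1.90 ± 1.15 CPM in siblings (SD, n = 7), a fitted fold of 19.6 (log2 fold change 4.29, SE 0.42, edgeR adjusted p = 8.27e-07). The siblings held 28 counts in all and their mean was within the range of the floors, so the size of this fold is uncertain.

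psmb12 (NM_131676.2), which RefSeq also lists as beta1t, had 15.5, 8.37, 17.2, 76.7, 79.7, 69.1, 10.8 and 73.2 CPM across mutant replicates 1 to 8. In siblings it had 11 counts in all, in replicates 1, 2 and 5, and 0 in the other 4 libraries. Mutant replicates 4, 5, 6 and 8 stood at 69.1 CPM or more, while the other 4 mutants reached at most 17.2 CPM. The mean was 43.8 ± 33.2 CPM in mutants (SD, n = 8) and 0.795 ± 1.24 CPM in siblings (SD, n = 7), a fitted log2 difference of 5.91 (SE 0.75, edgeR adjusted p = 1.23e-05). The sibling mean of psmb12 lay below the floor of each sibling library (0.902 CPM or more), which leaves its fold uncertain.

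psmb8a (NM_131392.3), the counterpart of PSMB8 that takes the place of the chymotrypsin-like subunit psmb5, had 136 counts in mutants and 0 counts in all 7 siblings. The mutant levels were 0, 0, 1.81, 12.9, 6.21, 6.99, 3.08 and 10.3 CPM in replicates 1 to 8, so mutant replicates 1 and 2 did not differ from siblings at this depth. Pooled over libraries, the level was 6.66 CPM in mutants and under a floor of 0.199 CPM in siblings (3 counts over the group). The pooled mutant level was 33.4-fold that floor. This ratio leaves out the spread between mutants, so it is no lower bound for a mutant library. Mutant replicates 4, 5, 6 and 8 held 52, 23, 17 and 34 of the 136 counts. psmb13a (NM_131677.1), listed also as beta2ta, had 2.95, 6.28, 4.99, 32.4, 22.1, 17.7, 1.54 and 23.6 CPM across mutant replicates 1 to 8. It had 361 counts in mutants and 3 in siblings, a pooled ratio of 88.6 with an exact binomial 95% counting interval of 30.1 to 432. Each of the 8 mutants was above every sibling for psmb13a, and 6 of 8 were for psmb8a.

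Since these genes did not pass the filter, log2 CPM (prior count 2) was compared by an exact permutation test, two-sided, with 6435 arrangements of the labels. The p was 0.000311 for psmb13a and 0.00699 for psmb8a, and 0.000622 and 0.00699 after adjustment over both. Both genes were chosen with results known, so these p-values describe the separation and are no independent support for it. The edgeR fit with no filter gave log2 fold changes of 5.90 for psmb13a (adjusted p = 0.000515) and 6.86 for psmb8a (adjusted p = 0.00492), and the size for psmb8a is no bound, as its siblings are at 0. psmb9a and psmb12 passed the filter through the mutants, since 8 mutant libraries and 0 sibling libraries reached its 4.81 CPM.

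**Figure D2:**
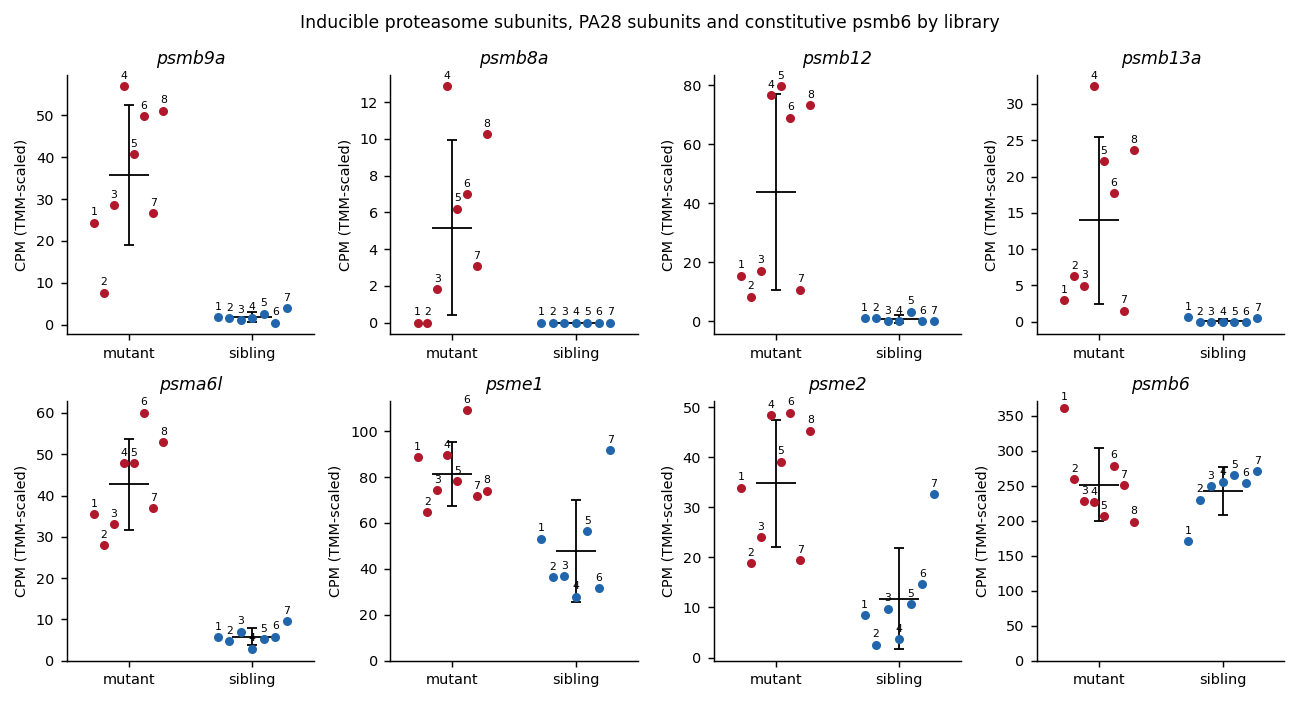
TMM-scaled CPM of 5 inducible 20S subunits, both PA28 subunits and the constitutive subunit psmb6, by library. Points carry replicate numbers and bars give the mean ± SD. For psmb9a, psmb12, psmb13a and psma6l all 8 mutants lie above every sibling, whereas psmb6 overlaps, with 199 to 362 CPM in mutants and 171 to 271 CPM in siblings.

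The remaining beta subunits that were grouped here with the inducible forms were barely counted. psmb10 (beta2i) had 0 counts in mutants and 3 in siblings on the accession used, and psmb11a had 1 count in all. psmb11b reached at most 1.82 CPM in mutants and 0.978 CPM in siblings, with 20 counts in mutants and 4 in siblings. The edgeR fit with no filter did not call these genes, and counts this low leave a difference open.

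psma6l (NM_131795.2) is named as a like-form of the alpha ring subunit psma6. Mutant replicates 1 to 8 had 35.4, 27.9, 33.1, 47.8, 47.8, 60.1, 36.9 and 52.9 CPM, while sibling replicates 1 to 7 had 5.71, 4.66, 7.05, 2.92, 5.32, 5.87 and 9.53 CPM. The groups did not overlap, with 27.9 CPM in the lowest mutant and 9.53 CPM in the highest sibling. The mean was 42.7 ± 11 CPM in mutants (SD, n = 8) and 5.87 ± 2.05 CPM in siblings (SD, n = 7), a fitted fold of 7.46 (log2 fold change 2.90, SE 0.26, edgeR adjusted p = 3.58e-06). All mutants lay above every sibling in 3 of the 46 tested members, psmb9a, psmb12 and psma6l, beside 1.57% of all accessions tested (2.31% without overlap in either direction). In 0 members all mutants lay below every sibling, beside 0.736% of all accessions. psmb9a and psmb12 were tested only because they are high in mutants, so nothing is read from that count.

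psma6a and psma6b, the alpha ring genes that psma6l resembles, did not share its change. psma6b was at 135 to 233 CPM (median 157) in mutants and 159 to 231 CPM (median 203) in siblings, a fitted log2 difference of -0.30 (SE 0.13, edgeR adjusted p = 0.116). It was called lower with voom quality weights (-0.43) and on leaving out mutant replicate 1 (-0.42), mutant replicate 2 (-0.36) or sibling replicate 1 (-0.40). Whole-table calls of these settings are given with the 19S symbols. psma6a was at 8.37 to 21.4 CPM (median 19) in mutants and 16.3 to 33.4 CPM (median 21.6) in siblings, a fitted log2 difference of -0.41 (SE 0.22, edgeR adjusted p = 0.197). Counts of near-identical paralogs are uncertain, since reads may be assigned to either copy.

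The other alpha ring subunits form the gated ends of the core. Over the 9 tested symbols of this ring, log2 fold changes ran from -0.41 for psma6a to 0.07 for psma4, with a median of -0.02, and the median over all accessions was 0.04. psma4 was at 244 to 390 CPM (median 319) in mutants and 232 to 382 CPM (median 286) in siblings, so the groups overlapped almost fully. The paralogs psma2a and psma2b kept an even split, with psma2a at 51.5 ± 1.76% of their joint counts in mutants (SD, n = 8) and 51.6 ± 2.15% in siblings (SD, n = 7).

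In the constitutive beta ring, which holds the cutting subunits psmb5, psmb6 and psmb7, the 5 tested symbols ran from -0.06 to 0.15 in log2 fold change. psmb3, a structural subunit, had the highest value, at 253 to 341 CPM (median 274) in mutants and 222 to 325 CPM (median 260) in siblings (SE 0.11, edgeR adjusted p = 0.387). psmb5 had the lowest, at 77.7 to 160 CPM (median 117) in mutants and 83.9 to 150 CPM (median 130) in siblings (SE 0.17, edgeR adjusted p = 0.814). psmb7, a gene of the 20S core, held only 38 counts over all libraries, and psmc3, a gene of the 19S ATPase ring, only 1. A low count of an accession here therefore does not show that the gene is silent.

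Counts of an inducible subunit were set against its constitutive counterpart within each library, a ratio that does not depend on library scaling. There were 2.96 to 25.7 counts of psmb9a per 100 counts of psmb6 in mutants (median 15.2) and 0.193 to 1.48 in siblings (median 0.676). For psma6l per 100 counts of psma6a and psma6b together the values were 14.0 to 35.4 in mutants (median 24.0) and 1.24 to 4.12 in siblings (median 2.67). psmb8a per 100 counts of psmb5 ran from 0 to 16.6 in mutants (median 4.17) and was 0 in each sibling. Neither ratio with psmb9a nor that with psma6l overlapped between groups. The counts are not scaled by transcript length, so a ratio compares libraries, not the amounts of the subunits.

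Summed over psmb8a, psmb9a, psmb12, psmb13a and psma6l, the share of all 20S counts was 1.97, 1.45, 2.83, 6.36, 6.44, 5.51, 2.67 and 7.28% in mutant replicates 1 to 8, against 0.355, 0.231, 0.253, 0.140, 0.306, 0.213 and 0.423% in sibling replicates 1 to 7. The mean was 4.31 ± 2.32% in mutants (SD, n = 8) and 0.275 ± 0.0946% in siblings (SD, n = 7). The lowest mutant share had a Wilson 95% interval of 1.15 to 1.82% and the highest sibling share one of 0.293 to 0.610%. No p is given for this sum, since its genes were chosen with results known. The constitutive 20S symbols summed to 3188 ± 410 CPM in mutants (SD, n = 8) and 3169 ± 326 CPM in siblings (SD, n = 7).

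**Figure D3:**
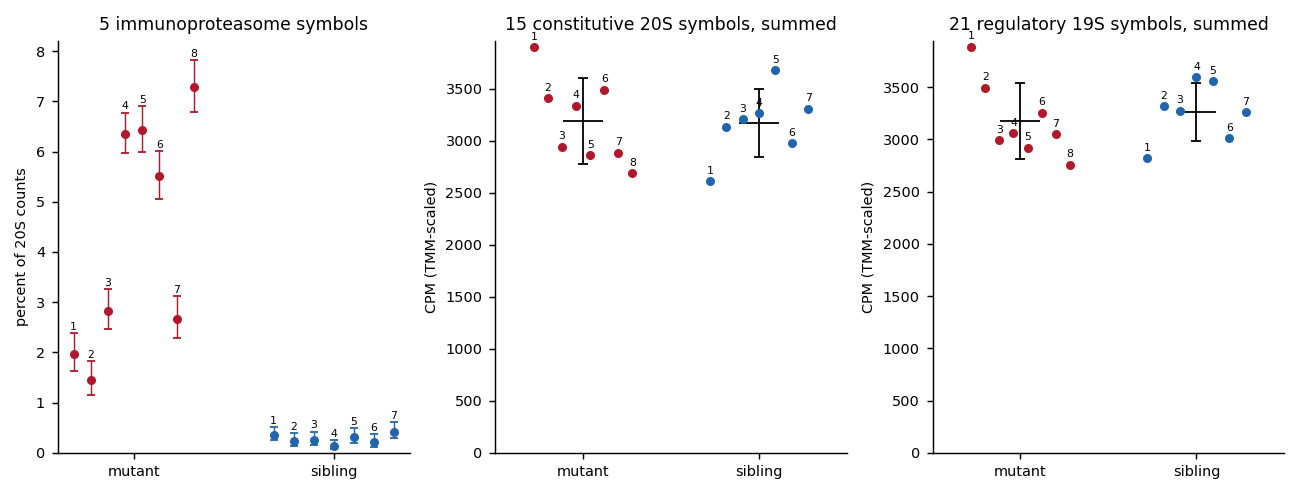
Left, percent of all 20S counts on the 5 immunoproteasome symbols in each library, with Wilson 95% intervals. Middle and right, summed TMM-scaled CPM of 15 constitutive 20S and 21 regulatory 19S symbols, with mean ± SD and replicate numbers; the share is 1.45 to 7.28% in mutants and 0.140 to 0.423% in siblings, while both sums overlap between groups.

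The 19S cap was examined in its base and lid. The ATPases of the base, psmc1 to psmc6, had 6 tested symbols with log2 fold changes of -0.14 to 0.07. psmc1a had the highest, at 150 to 211 CPM (median 172) in mutants and 146 to 202 CPM (median 161) in siblings, and its paralog psmc1b had the lowest, at 103 to 156 CPM (median 124) in mutants and 112 to 155 CPM (median 146) in siblings. The adjusted p of edgeR was 0.657 for psmc1a and 0.397 for psmc1b.

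The 14 non-ATPase symbols, grouped by the prefix psmd, ran from -0.25 to 0.06 in log2 fold change. The prefix alone does not show that each is a subunit of the finished cap. These symbols include psmd14, the enzyme that removes ubiquitin from substrates (0.03, SE 0.11), and the ubiquitin receptor genes psmd4a (-0.19, SE 0.14) and psmd4b (-0.14, SE 0.10). psmd3, a lid subunit, had the highest value, at 155 to 210 CPM (median 169) in mutants and 139 to 200 CPM (median 160) in siblings. psmd7, the partner of psmd14 in the lid, had the lowest, at 61.9 to 100.4 CPM (median 66.7) in mutants and 75.5 to 108 CPM (median 80.8) in siblings (SE 0.13, edgeR adjusted p = 0.203). In 6 of 8 mutants psmd7 was below every sibling, and the other 2 lay within the sibling range. psmd7 was called lower, at -0.36, when mutant replicate 1 was left out.

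The 19S symbols summed to 3178 ± 362 CPM in mutants (SD, n = 8) and 3264 ± 276 CPM in siblings (SD, n = 7). edgeR called 0 of the 34 tested constitutive 20S and 19S symbols, beside 19.2% of all accessions called in either direction. At an unadjusted p under 0.05, 0 were higher and 2 were lower, psma6b and psmd10. DESeq2 called 0, and limma with voom quality weights called 4 lower and 0 higher. Over all 12914 accessions the voom setting called 5575, of which 3086 were higher. The intervals of 2 SE around each log2 fold change all lay between -0.85 and 0.37, and 31 of 34 lay within 0.5 of 0 on either side. Leaving out mutant replicate 1 gave 2 lower calls (psma6b and psmd7) and sibling replicate 1 gave 2 (psma6b and psmd10). Leaving out mutant replicate 2 gave 1 (psma6b) and mutant replicate 5 gave 1 (psmd10). In that order, these fits called 3390 of 12938, 3058 of 13078, 2703 of 12835 and 1694 of 12345 accessions over the whole table. These lower calls are therefore not read as a result about the family.

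Among activators, psme1 and psme2 encode the PA28 ring, which opens the core without ubiquitin. psme2 (NM_131374.1) had 34.0, 18.8, 24.0, 48.5, 39.2, 49, 19.5 and 45.4 CPM across mutant replicates 1 to 8, and 8.42, 2.59, 9.76, 3.76, 10.6, 14.7 and 32.6 CPM across sibling replicates 1 to 7. Sibling replicate 7 lay among the mutants, and 5 of 8 mutants were above every sibling. The mean was 34.8 ± 12.7 CPM in mutants (SD, n = 8) and 11.8 ± 10.1 CPM in siblings (SD, n = 7), 1.63 higher on the log2 scale (SE 0.39, edgeR adjusted p = 0.00953).

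psme1 (NM_131375.2) had 88.6, 64.9, 74.4, 89.6, 78.1, 109, 71.8 and 74.1 CPM across mutant replicates 1 to 8, and 53.2, 36.3, 36.9, 28, 56.5, 31.8 and 91.8 CPM across sibling replicates 1 to 7. Without sibling replicate 7, at 91.8 CPM, every mutant would lie above every sibling. The mean was 81.3 ± 13.9 CPM in mutants (SD, n = 8) and 47.8 ± 22.2 CPM in siblings (SD, n = 7), 0.77 higher on the log2 scale (SE 0.22, edgeR adjusted p = 0.0224). The call was lost on leaving out mutant replicate 6 (0.67) or sibling replicate 2, 3, 4 or 6 (0.62 to 0.65), with adjusted p of 0.0548 to 0.0611. Without sibling replicate 7 the log2 fold changes were 0.94 for psme1 and 2.05 for psme2.

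The other activators, the inhibitor and the chaperones were not called by edgeR. With voom quality weights psme3, psmf1, psmg1 and psmg2 were called lower, at -0.37, -0.32, -0.29 and -0.26. Without mutant replicate 1 edgeR called psme3 (-0.36) and psmg2 (-0.29) lower. Over the whole table these settings called 5575 of 12914 and 3390 of 12938 accessions. psme3, which encodes the nuclear PA28 form, was at 91.8 to 168 CPM (median 105) in mutants and 104 to 154 CPM (median 133) in siblings (log2 fold change -0.23, SE 0.14, edgeR adjusted p = 0.260). psme4b, a gene of the large activator PA200, was at 1.81 to 16.7 CPM (median 5.42) in mutants and 3.11 to 12.0 CPM (median 8.53) in siblings (-0.32, SE 0.38). psmf1, the inhibitor PI31, was at 44.0 to 77.5 CPM (median 54.3) in mutants and 53.8 to 77.1 CPM (median 62.9) in siblings (-0.21, SE 0.14). The 3 assembly chaperones ran from -0.19 for psmg2, at 77.4 to 116 CPM (median 88.1) in mutants and 85.5 to 122 CPM (median 99.8) in siblings, to 0.05 for psmg3, at 89.3 to 150 CPM (median 97.0) in mutants and 85.6 to 119 CPM (median 95.9) in siblings.

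The inducible genes varied together among mutants. For 6 of 7 genes (the 5 inducible subunits and psme2, with psme1 the exception) the 4 highest mutants were replicates 4, 5, 6 and 8. The share of all accessions with that order was not counted, so the order is not read as particular to these genes. Mutant replicates 4, 5, 6 and 8 had the highest total counts of the mutants. They also had the most detected accessions, 25684 to 27413, against 18188 to 21970 in the other mutants and 18841 to 23992 in siblings. Their marker sums stood apart as well. Pronephric epithelium markers were at 3239 to 4206 CPM in these 4 libraries, less than in any sibling, and at 6856 to 9901 CPM in the other mutants. Erythrocyte markers were at 2712 to 5964 CPM in these 4 libraries and at 756 to 1045 CPM in the other mutants, and endothelium markers at 1334 to 2635 CPM in the 4 and 292 to 579 CPM in the other mutants. With those 4 libraries left out, psmb9a, psmb12 and psma6l were still called, with log2 fold changes of 3.5, 4.01 and 2.47, whereas psme1 (0.60, adjusted p = 0.241) and psme2 (0.99, adjusted p = 0.269) were not. With the number of detected accessions as a term psmb9a, psmb12 and psma6l were called, whereas psme1 (0.74, adjusted p = 0.0787) and psme2 (1.31, adjusted p = 0.0844) were not. Over the whole table these settings called 511 and 1334 accessions, against 2476 in the main fit. The part of detection depth and of tissue content in the result was not tested.

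Leukocytes are known to carry immunoproteasomes, and their markers were higher in mutants too. The 17 matched leukocyte markers summed to 168 to 1152 CPM (median 546) in mutants and 22.8 to 252 CPM (median 126) in siblings, and 7 of 8 mutants were above every sibling. The 4 highest sums were in mutant replicates 6, 8, 4 and 7. All 17 had counts, although cd4-1 was at 0 in siblings and mpeg1.1 was at 0 in mutant replicates 1 and 2 and in 6 siblings. Of the 17 markers 8 were tested, and 6 of the 8 were called higher (75%, beside 13.6% of all accessions) and 0 lower. The rest of the 8 had log2 fold changes that were not above 0. Among those called, the phagocyte genes lyz and ncf1 were higher by 6.18 (SE 0.79, edgeR adjusted p = 1.09e-05) and 3.20 (SE 0.29, adjusted p = 4.43e-06) on the log2 scale.

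In mutant replicate 1, the lowest mutant, the leukocyte sum was 168 CPM and psmb9a was at 24.4 CPM. In sibling replicate 3, the highest sibling, the sum was 252 CPM and psmb9a was at 1.08 CPM. In sibling replicate 7 the sum was 176 CPM and psmb9a was at 4.01 CPM, the highest of the siblings. That library was also the highest sibling for psma6l (9.53 CPM), psme1 (91.8 CPM) and psme2 (32.6 CPM). With the leukocyte share as a term 9 accessions remained called over the whole table. psma6l was among them (2.19, adjusted p = 0.0445), whereas psmb9a (3.33, adjusted p = 0.0562) and psmb12 (4.28, adjusted p = 0.344) missed the threshold, as did psme1 (0.40) and psme2 (0.60). The part of leukocytes in the result was not tested.

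The intestine list had 18 matched markers, of which apobb.1 was at 0 in siblings. The list shares cdh17 with the pronephric epithelium list, so its sum is no clean measure of intestine. It summed to 1786 to 5158 CPM in mutants and 1260 to 1797 CPM in siblings, with 7 of 8 mutants above every sibling. The exception, mutant replicate 6, had 49.8 CPM of psmb9a. The 19 epidermis markers summed to 3097 to 14612 CPM in mutants and 1169 to 4032 CPM in siblings, and mutant replicates 1, 5 and 8, within the sibling range, had 24.4, 40.8 and 51.1 CPM of psmb9a. Erythrocyte and endothelium markers (14 and 21) were at 756 to 5964 CPM and 292 to 2635 CPM in mutants, and at 297 to 2930 CPM and 99.0 to 1668 CPM in siblings. The highest sibling was replicate 1 in both lists, with 1.80 CPM of psmb9a. In the other 6 siblings the sums were 297 to 359 CPM and 99.0 to 179 CPM, below all 8 mutants. Neuron markers summed to 34.0 to 139 CPM (median 112) in mutants and 10.4 to 168 CPM (median 23.5) in siblings, and all 8 mutants lay above the other 6 siblings (at most 33.1 CPM) and below sibling replicate 1 (168 CPM). Skeletal muscle markers summed to 773 to 5647 CPM in mutants and 938 to 18818 CPM in siblings. Calls were also frequent outside the leukocyte list. Of 12 tested intestine markers 8 were called higher (66.7%) and 1 lower, and of 19 epidermis markers 11 higher (57.9%) and 0 lower. Called higher were 1 of 10 erythrocyte, 3 of 17 endothelium, 1 of 5 neuron and 0 of 14 skeletal muscle markers, with 1 erythrocyte marker lower. Of 18 tested pronephric epithelium markers 2 were called higher (11.1%) and 3 lower (16.7%). Over all accessions 13.6% were called higher and 5.54% lower. The part of these cell types in the result was not tested.

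**Figure D4:**
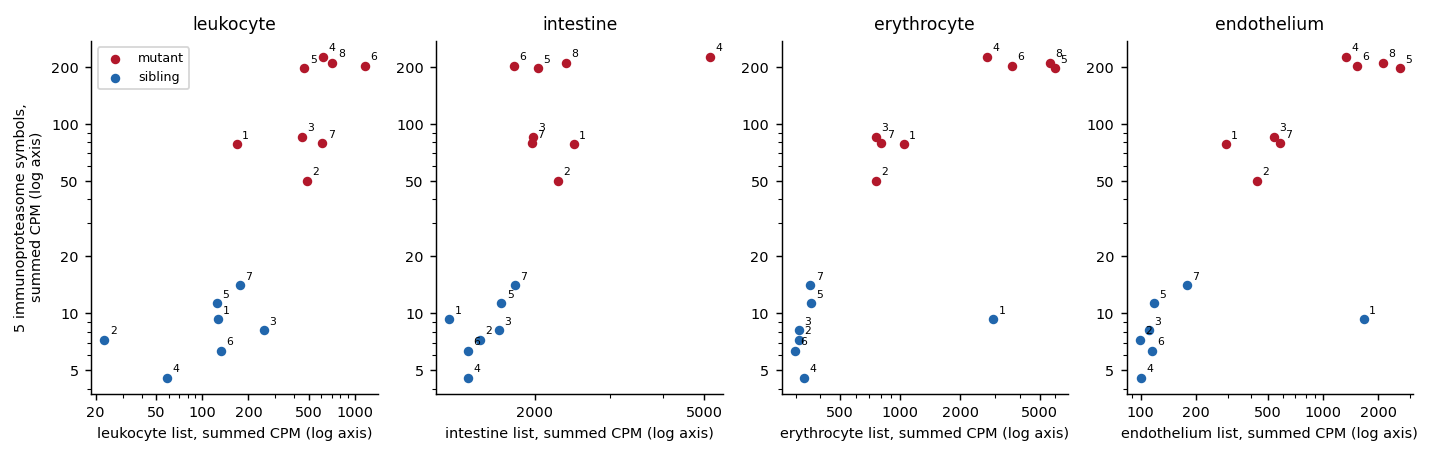
Summed CPM of the 5 immunoproteasome symbols against the summed CPM of 4 marker lists, 1 point per library with its replicate number, on log axes. Sibling replicate 1 lies at 2930 CPM of erythrocyte and 1668 CPM of endothelium markers with 9.32 CPM of immunoproteasome. Mutant replicate 1 lies at 168 CPM of leukocyte markers with 78.3 CPM. Sibling replicate 7 lies at 176 CPM of leukocyte markers with 14.0 CPM, the highest immunoproteasome sum of the siblings.

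Genes of MHC class I antigen presentation, the pathway that uses immunoproteasome products, were taken from a list of 34, of which 19 matched and 10 were tested. edgeR called 4 higher and 0 lower, with 0 lower also by an unadjusted p under 0.05, DESeq2 and voom quality weights. The share called higher was 40.0%, beside 13.6% of all accessions, and the median log2 fold change over the 10 was 0.31. The calls fell to 0 with the leukocyte share as a term and to 1 without mutant replicates 4, 5, 6 and 8. Over the whole table these settings called 9 and 511 accessions, against 2476 in the main fit. The class I gene mhc1uba was at 30.7 to 94.0 CPM (median 63) in mutants and 4.66 to 26.2 CPM (median 8.53) in siblings, with no overlap (log2 fold change 2.43, SE 0.34, edgeR adjusted p = 0.000245). tap1, a gene of the peptide transporter, was at 10.9 to 44.2 CPM (median 37.1) in mutants and 6.22 to 18.4 CPM (median 7.98) in siblings (1.72, SE 0.37, adjusted p = 0.00462). The others were the calreticulin genes calr3b (0.46, adjusted p = 0.0106) and calr3a (0.34, adjusted p = 0.0437), which are general chaperones of the endoplasmic reticulum.

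b2m, the light chain of class I molecules, was at 60.6 to 95.6 CPM (median 71.6) in mutants and 38.8 to 131 CPM (median 93.4) in siblings (-0.15, SE 0.23, edgeR adjusted p = 0.670). tap2a was not tested, with 38 counts in mutants and 0 in siblings, and 5 of 8 mutants had counts above the siblings' 0. In the gene order of the RefSeq table (assembly GRCz12tu) psmb8a, psmb13a, psmb12, psmb9a and tap2a stand next to each other. The annotated span of psmb8a overlaps those of psmb9a, psmb12 and psmb13a, and that of psmb13a also overlaps psmb9a, psmb12 and tap2a. The strand used in counting is not given, so the split of counts between these genes is uncertain. hsd17b8, the nearest matched gene beyond tap2a, was lower in mutants (-0.69, SE 0.17, edgeR adjusted p = 0.00967). psma6l is not among these neighbours.

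Of 67 genes listed for the interferon and inflammatory response, 54 matched and 28 were tested, with a median log2 fold change of 0.47. edgeR called 11 higher and 0 lower, with 0 lower also by an unadjusted p under 0.05, DESeq2 and voom quality weights. The share called higher was 39.3%, beside 13.6% of all accessions, and with the leukocyte share as a term 0 were called. irf8, a transcription factor of myeloid cells, was at 5.91 to 41.9 CPM (median 24.0) in mutants and 2.51 to 13.6 CPM (median 5.18) in siblings (1.93, SE 0.40, edgeR adjusted p = 0.00334). irf1b, a counterpart of the factor that turns on immunoproteasome genes in mammals, was at 38.4 to 186 CPM (median 138) in mutants and 19.1 to 96 CPM (median 47.2) in siblings (1.36, SE 0.31, adjusted p = 0.00705). The receptor gene crfb2 (1.94, adjusted p = 0.00572) and the interferon gene ifnphi1 (0.97, adjusted p = 0.0143) were called too.

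Other called genes of that list were isg15, ifih1, crfb1, jak1, socs3b, il1b and nfkb2, of which il1b and nfkb2 belong to inflammation rather than interferon. stat1a, the main signal carrier of interferons, was at 95.7 to 181 CPM (median 129) in mutants and 103 to 164 CPM (median 144) in siblings (0.03, SE 0.17, edgeR adjusted p = 0.914). stat1b had at most 0.698 CPM in a mutant and 0 in siblings. Without mutant replicates 4, 5, 6 and 8 the list had 0 calls, and leaving out single libraries gave at least 4. With those mutants left out, 378 of 12887 accessions were called higher over the whole table, against 1761 of 12914 in the main fit.

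The third list held 36 partners of the proteasome and suppliers of ubiquitin, of which 29 matched and 26 were tested. edgeR called 0, with 4 higher and 0 lower at an unadjusted p under 0.05, 0 by DESeq2 and 3 higher and 1 lower by voom quality weights. Among all 12914 accessions tested, edgeR called 19.2% in either direction and 13.6% higher. The voom setting called 5575 of the 12914, of which 3086 were higher. Its calls in this list are therefore not read as a result about the partners. The median log2 fold change over the 26 was 0.09. pomp, which builds the 20S core, was at 297 to 449 CPM (median 344) in mutants and 273 to 376 CPM (median 318) in siblings (0.12, SE 0.12, edgeR adjusted p = 0.490). nfe2l1a and nfe2l1b, counterparts of the factor that raises all constitutive subunits when proteasomes fail in mammals, were at 0.73 (SE 0.46, adjusted p = 0.276) and -0.24 (SE 0.36, adjusted p = 0.672).

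**Figure D5:**
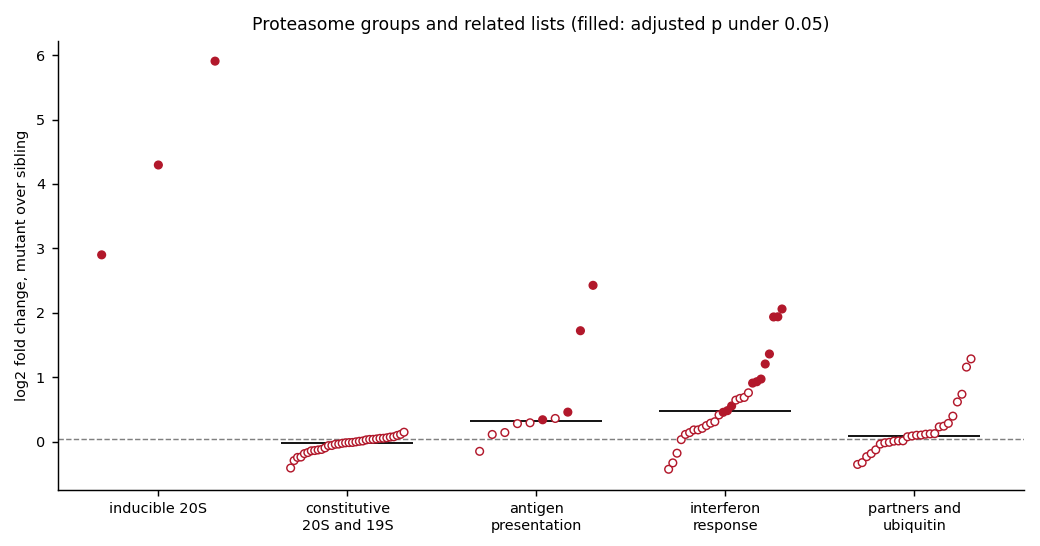
Log2 fold changes, mutant over sibling, of tested inducible and constitutive subunits and of 3 related lists, sorted within each. Filled points passed an adjusted p of 0.05, solid lines are medians (none for the inducible subunits) and the dashed line is the median of all accessions tested, 0.04. Filled points lie among inducible subunits (3 of 3, of which psmb9a and psmb12 passed the filter only through mutants), antigen presentation (4 of 10) and interferon response (11 of 28), with 0 among constitutive subunits and partners.

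Likeness to psmb9a was measured by Pearson's r of log2 CPM over the 15 libraries, which share depth and the split into groups, so r is a description with no test. Within the family psma6l (0.96) and psmb12 (0.95) came closest, followed by psme1 (0.83) and psme2 (0.81). Of the other accessions tested, 3 exceeded psma6l. The 5 closest outside the family were XM_021470502.1, which matched no symbol (0.97), sult3st4 (0.97), the apolipoprotein gene apoa1b (0.96), the homeobox gene hoxd11a (0.96) and zgc:136410 (0.95). Of these, apoa1b is also in the intestine list. In each of these 5 genes all 8 mutants lay above every sibling, beside 1.57% of all accessions tested. They were picked for likeness to psmb9a, whose groups do not overlap either, so nothing is read from this.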

How the data were processed

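Counts per RefSeq accession, whole numbers, were deposited in 2 tables, 1 for each sequencing index. The submitters' processing notes name cutadapt, FastQC, STAR, featureCounts, edgeR and GRCz11, without versions or roles. The strand setting, and if counts are reads or molecules, is not given in the sources used here. An accession listed in 1 table was given 0 in the other. Symbols came from a RefSeq table (assembly GRCz12tu), version numbers ignored: 20439 of 33298 accessions matched, with 85.8% of counts.

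The comparison used edgeR 4.0.16 under R 4.3.3 (TMM, filterByExpr, glmQLFit with robust estimation and bias adjustment, glmQLFTest), with Benjamini-Hochberg adjustment over 12914 accessions and a threshold of 0.05. SE is the size of the log2 fold change over the square root of F. Bias adjustment and library totals taken after the filter follow an earlier analysis of these data, and were adopted after a first fit without them had called fewer accessions; with no bias adjustment 1631 were called, against 2476. Fits without these settings, and on replicates 1 to 7 with no block, were added after seeing the data. Alternatives used DESeq2 1.42.0 and limma 3.58.1. Python 3.11.15, numpy 2.4.6, scipy 1.17.1, pandas 2.3.3 and matplotlib 3.10.9 served for the rest. The fit was first tested on simulated data.

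The members, lists and the rule for named genes were chosen with earlier results of these data known. Named were the inducible and PA28 subunits, called members, the highest and lowest of each role, up to 4 called genes per list, fixed genes of the lists, neighbours of psmb9a and its 5 closest accessions.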

Additional observations from a re-analysis of the deposited data

Results flagged for a closer look

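Dixon's test at 95% was applied to 94 groups of libraries, the tested members and the immunoproteasome share in each genotype. It set 7 libraries apart from their group, and about 1 in 20 groups, here 4.7, would be set apart by chance. psme2 was at 32.6 CPM in sibling replicate 7, against 2.59 to 14.7 CPM in the other siblings. psmb12 was at 3.32 CPM in sibling replicate 5, against 0 to 1.2 CPM in other siblings. psmb6 was at 171 CPM in sibling replicate 1, the others at 230 to 271 CPM, and psmd11b at 175 CPM in sibling replicate 4, the others at 119 to 138 CPM. Mutant replicate 1 was the highest for psmc5, at 325 CPM with other mutants at 210 to 263 CPM, and for psmg2, at 116 CPM with other mutants at 77.4 to 92.1 CPM. psmd4b was at 131 CPM in mutant replicate 6, with other mutants at 92.3 to 108 CPM.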

How the results depend on the processing

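Over 30 alternatives psma6l kept its call in 30 (2.19 to 3.02), psmb9a (3.33 to 4.60) and psmb12 (4.01 to 6.67) in 29 each. psme2 kept its call in 25 (0.60 to 2.07) and psme1 in 19 (0.40 to 0.94). Where a result moved, the cause was not tested. Calls over the whole table moved too, from 2476 in the main fit. They were 5575 with voom quality weights, 1334 with detected accessions as a term and 1026 with the erythrocyte and endothelium share. With the leukocyte share they were 9, and without mutant replicates 4, 5, 6 and 8 they were 511. On leaving out single libraries they were 1621 to 3390. The 5 members called higher became 3 with detected accessions as a term, 3 with the erythrocyte and endothelium share, 1 with the leukocyte share, 3 without mutant replicates 4, 5, 6 and 8, and 4 to 6 on leaving out single libraries. The count called lower (0) was 8 with voom quality weights and 0 to 4 on leaving out single libraries. Antigen presentation calls (4) were 2 at an adjusted p under 0.01, 2 with the erythrocyte and endothelium share, 0 with the leukocyte share and 1 without mutant replicates 4, 5, 6 and 8, and 3 to 4 without single libraries. Interferon calls (11) were 3 at an adjusted p under 0.01, 6 without bias adjustment, 6 in replicates 1 to 7 with no block, 3 with detected accessions, 4 with the erythrocyte and endothelium share, 0 with the leukocyte share and 0 without mutant replicates 4, 5, 6 and 8, and 4 to 11 without single libraries. Partner calls (0) were 1 with upper-quartile factors, 4 with voom quality weights, 1 with detected accessions, 1 with the erythrocyte and endothelium share and 0 to 1 without single libraries. The share difference of 4.04 percentage points was 6.98 with beta subunits only, and 3.61 to 4.45 without single libraries.

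The labels do not say if replicate numbers pair the libraries. Correlations of same-numbered deviations ran from -0.54 to 0.26 over 7 pairs. The same-numbered sibling was the closest only for mutant replicates 3 and 7, and these values cannot settle whether batches were shared. With a replicate block, which left out mutant replicate 8, members called higher were 3, antigen presentation calls 1 and interferon calls 6. Over the whole table this fit called 1097 of 12327 accessions, 768 of them higher, against 2476 of 12914 in the main fit. The same libraries with no block gave 5, 3 and 6 calls, and 1621 of 12327 accessions over the whole table.

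Uncalled members near 0 changed sign. With no filter psmc1a was at -0.014, psmd3 at -0.030, psma4 at -0.017 and psmg3 at -0.035, and with library totals before the filter psmg3 was at -0.0016. psma4 was at -0.010 with voom and -0.034 without mutant replicates 4, 5, 6 and 8, where psmb5 was at 0.16. With detected accessions, the erythrocyte and endothelium share and the leukocyte share as terms, psmc1b was at 0.029, 0.055 and 0.041 and psmb5 at 0.23, 0.35 and 0.12. Without single libraries psmc1a ran from -0.019 to 0.11, psmd3 from -0.042 to 0.080, psma4 from -0.042 to 0.12 and psmg3 from -0.069 to 0.090.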
